A study of Mus musculus with 9 samples.

Results

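The stroma of the lymph node was examined in mouse lymphomas through 10 genes that mark its vessels and its fibroblast-like cells. The genes were chosen by name for what they are known to mark, and all 10 were found among the 41128 genes of the count table. Pecam1, Cdh5 and Kdr stood for blood endothelium, Lyve1 and Prox1 for lymphatic endothelium, Pdpn, Ccl19 and Cxcl13 for reticular fibroblasts and follicular dendritic cells, and Madcam1 and Glycam1 for the venules through which lymphocytes enter the node. RNA-seq was performed on 9 lymphomas, 3 from Bcl6 mice (IµBcl6 Smc3 wt/wt) and 6 from Smc3/Bcl6 mice (IµBcl6 Smc3 wt/-), with a separate library for each tumor. Both genotypes carry the IµBcl6 transgene, which holds Bcl6 on in B cells, and the Cγ1-Cre allele, and in Smc3/Bcl6 mice this Cre removes a Smc3 allele from B cells as they enter the germinal center. Cγ1-Cre is directed at B cells, so the endothelial and reticular cells are not its intended target in either genotype. Ages of the mice were not given in the labels, and the tissue label reads mesenteric lymph node for replicate 1 of each genotype and lymph node for the other 7 tumors. Nothing in the labels says whether the tumors came from separate litters, so that p-values measure the spread between these tumors.

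Lymph nodes are built on stroma. Fibroblastic reticular cells lay down the fibres of the T cell zone and release Ccl19, a chemokine that draws cells bearing Ccr7, while follicular dendritic cells hold antigen in the B cell follicle and release Cxcl13, the ligand of Cxcr5. Lymphocytes leave the blood through high endothelial venules, whose surface carries the sialomucin Glycam1 and Madcam1, the ligand of the integrin α4β7. Lymphatic vessels, specified by the transcription factor Prox1, drain the node. Much of this organization depends on lymphotoxin made by lymphocytes, which acts through its receptor and NF-κB in the stromal cells.

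Total counts ranged from 10156728 to 16898438 in Bcl6 tumors and from 11618983 to 17774577 in Smc3/Bcl6 tumors. Levels are given as CPM, read counts scaled to a common library size, here by TMM, a normalization on the bulk of genes, and 3 counts corresponded to between 0.156 and 0.317 CPM depending on the tumor. Where a tumor had no count of a gene, its level could lie anywhere up to that value, which covers counting error only. Smc3, the check of the labels, ranged from 87.9 to 125 CPM without the deletion and was 27.9 CPM in Smc3/Bcl6 tumor 2 and from 89.6 to 111 CPM in the other 5 Smc3/Bcl6 tumors (log2 fold change -0.19, SE (SE) 0.38, Benjamini-Hochberg adjusted p = 1 by the quasi-likelihood test of edgeR), so this check did not separate the labels. Smc3/Bcl6 tumor 2 stood apart from the rest. Its deviation from the mean of the other tumors correlated with exon length at a Spearman rho of -0.47 across genes, against -0.03 to 0.27 for the other 8, each computed in the same way. Its TMM factor was 0.693 against 0.965 to 1.10. Results that rest on this tumor are given with and without it.

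The promoters of Cxcl13, Ccl19, Glycam1 and Madcam1 are shown, since lymphotoxin and NF-κB are known to act on this group of genes. Cxcl13, Ccl19 and Glycam1 were highest in the same tumors, whereas Madcam1 was highest in Smc3/Bcl6 tumor 2. The promoters are the 250 bases before the transcription start from RefSeq (GRCm38.p6), written 5′ to 3′ on the strand of the gene, with capitals marking TATAAA on either strand and the NF-κB consensus on either strand. Entries were present for 7 of the 10 genes, with none for Pecam1, Cdh5 and Lyve1. The sequences are those of Cxcl13 (chr5:95956689-95956938, plus strand), Madcam1 (chr10:79664309-79664558, plus strand), Ccl19 (chr4:42756366-42756615, minus strand) and Glycam1 (chr15:103565082-103565331, minus strand).
Cxcl13: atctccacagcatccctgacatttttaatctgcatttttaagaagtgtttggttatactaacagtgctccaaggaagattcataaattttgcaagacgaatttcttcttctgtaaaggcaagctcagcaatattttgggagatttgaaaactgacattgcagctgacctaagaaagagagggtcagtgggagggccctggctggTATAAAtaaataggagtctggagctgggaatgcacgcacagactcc
Madcam1: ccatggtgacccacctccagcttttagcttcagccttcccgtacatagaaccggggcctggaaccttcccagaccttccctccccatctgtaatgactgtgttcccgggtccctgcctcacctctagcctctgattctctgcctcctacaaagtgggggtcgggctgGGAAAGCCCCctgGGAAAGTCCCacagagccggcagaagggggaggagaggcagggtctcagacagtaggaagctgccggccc
Ccl19: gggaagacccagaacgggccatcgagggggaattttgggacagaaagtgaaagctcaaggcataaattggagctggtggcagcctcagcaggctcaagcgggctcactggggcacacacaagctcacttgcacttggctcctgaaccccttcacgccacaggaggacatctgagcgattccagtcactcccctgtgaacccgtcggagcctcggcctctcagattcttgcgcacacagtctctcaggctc
Glycam1: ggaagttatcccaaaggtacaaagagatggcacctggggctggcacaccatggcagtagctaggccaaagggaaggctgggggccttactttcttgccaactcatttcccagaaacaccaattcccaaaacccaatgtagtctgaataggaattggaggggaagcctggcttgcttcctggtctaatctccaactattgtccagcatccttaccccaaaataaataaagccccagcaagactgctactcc
Cxcl13 had a TATAAA box 46 bases before the start. Madcam1 held 2 matches to the NF-κB consensus, 70 and 83 bases before the start. Neither motif was found in the windows of Ccl19 and Glycam1. Among the windows not shown, that of Kdr held an NF-κB match 74 bases before the start. A window of Prox1 held TATAAA 34 bases before the start, and that of Pdpn held neither motif. Over 32851 promoters of the same length, 12.4% held TATAAA and 7.25% held the NF-κB consensus, so that a match is a description of the sequence and no more; the motifs did not overlap.

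The 10 genes covered a wide range of levels, and most were low. Relative to exon length, the mean level over the 9 tumors was 32.6 CPM per kilobase for Cxcl13 and 19.6 for Pecam1. Madcam1 had 2.25 CPM per kilobase, and Kdr, Cdh5, Lyve1, Ccl19, Glycam1 and Prox1 had between 0.228 and 0.605. Pdpn, the podoplanin by which reticular fibroblasts and lymphatic vessels are usually recognized, had 0.0162 CPM per kilobase, or 4 counts in all tumors together. A defining marker of reticular stroma was thus near 0 in these libraries. In bulk tumors, fewer cells of a type and less RNA per cell cannot be told apart.

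**Figure D1:**
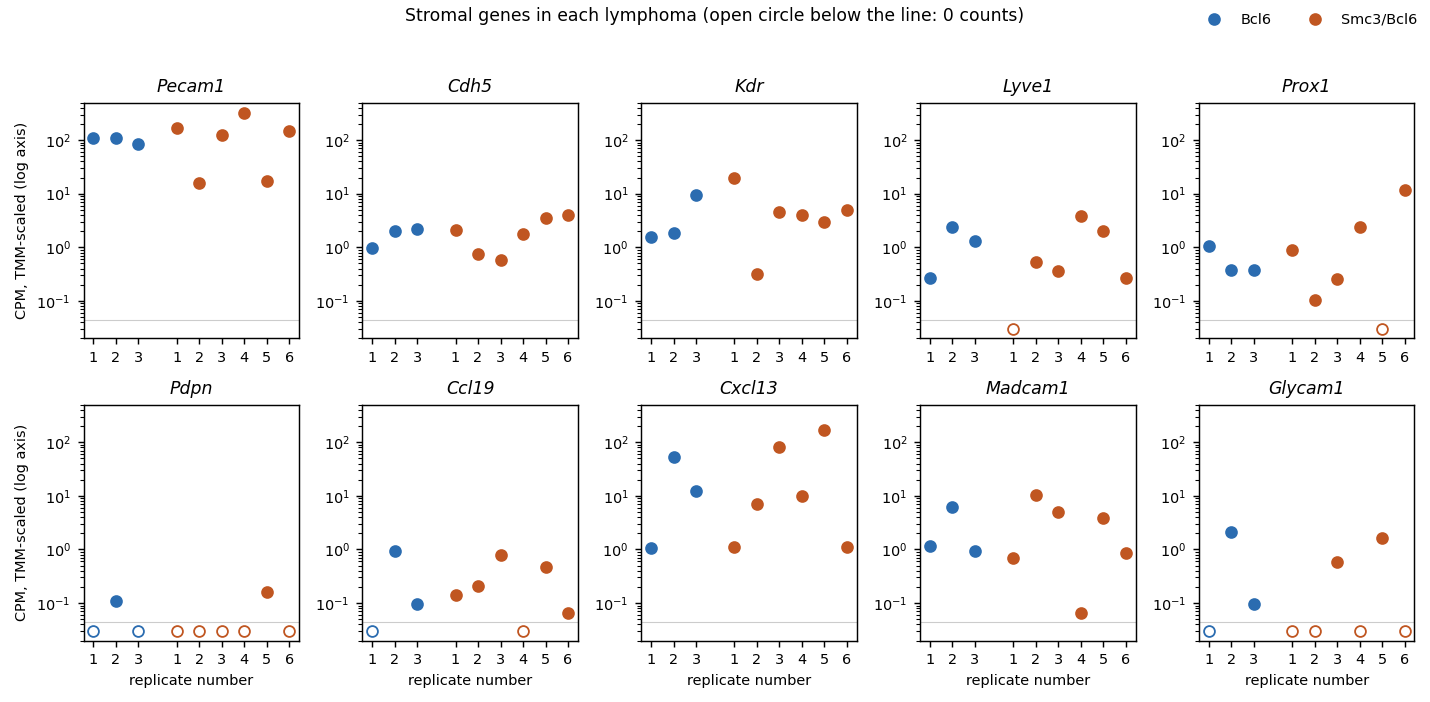
Level of each stromal gene in each lymphoma in CPM scaled by TMM on a log axis, with replicate numbers on the x axis, Bcl6 tumors in blue, Smc3/Bcl6 tumors in orange and open circles for tumors with 0 counts. The genotypes overlap for all 10 genes, and Cxcl13, Ccl19 and Glycam1 are highest in Bcl6 tumor 2 and Smc3/Bcl6 tumors 3 and 5.

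The genotypes were compared to ask whether the stroma differs when the tumor B cells lack a Smc3 allele. No member passed the thresholds of the study, a p below 0.1 before adjustment together with a change of more than 0.56 on the log2 scale in either direction. Of the 10 genes, 7 passed edgeR's filter on low counts and were tested, and 6 of these 7 had a fold change above 0, with a median log2 fold change of 0.36 and a smallest unadjusted p of 0.229; of all genes tested, 57.4% had a fold change above 0. In a fit that blocked on replicates 1 to 3 and left out Smc3/Bcl6 tumors 4, 5 and 6, 5 members were tested. Of these, 4 had a fold change below 0 (median -0.16). Over all 14057 genes tested, 1.28% (180 genes) were higher and 0.868% (122 genes) lower in Smc3/Bcl6 tumors at these thresholds, with a median log2 fold change of 0.06. Scaling by library totals alone gave 108 higher and 175 lower and a median of -0.04. At an adjusted p below 0.05, 0% of genes were called by edgeR (0 genes, with 79 at an unadjusted p below 0.05), and the other tools, DESeq2 and limma, called 0 as well. The levels of the 2 genotypes overlapped for every member, whereas 0.484% of all genes tested (68 genes) did not overlap.

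**Figure D2:**
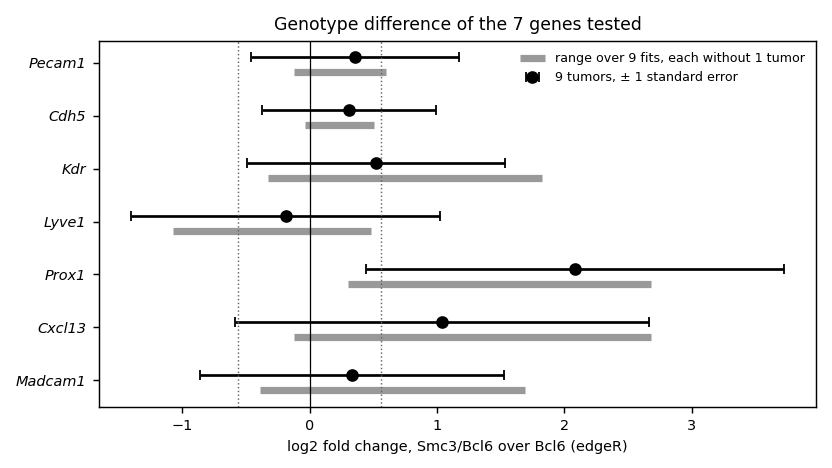
Log2 fold change of the 7 genes tested, Smc3/Bcl6 over Bcl6, from edgeR (points, with bars of 1 standard error) and the range over 9 fits that each left out 1 tumor (grey bars); dotted lines mark an absolute log2 fold change of 0.56. Prox1 has the highest value, 2.08, and 6 of the 7 grey bars cross 0.

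Among the blood endothelial genes, Pecam1 was abundant while Cdh5 and Kdr were low. Pecam1 (ENSMUSG00000020717.14, chromosome 11, 106654217 to 106750628, GRCm38) encodes CD31, an adhesion molecule of endothelial junctions that leukocytes and platelets also carry. Its levels were 111, 111 and 86.3 CPM in the Bcl6 tumors and between 15.8 and 317 CPM, with a median of 137, in Smc3/Bcl6 tumors. The Bcl6 tumors were close together, whereas Smc3/Bcl6 tumors 2 and 5 fell far below them and tumor 4 was the highest of all. Means were 103 ± 14.3 CPM (SD, n = 3) and 132 ± 112 CPM (SD, n = 6), respectively, and the log2 fold change was 0.36 (SE 0.82, adjusted p = 1, edgeR). On the mean of log2 CPM the difference was -0.34 (Smc3/Bcl6 minus Bcl6, p = 0.845, exact two-sided permutation over 84 divisions, smallest possible p = 0.0119), so that its sign depended on the scale. Without Smc3/Bcl6 tumor 4 the edgeR value was -0.12.

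Cdh5 (ENSMUSG00000031871.8, chromosome 8, 104101625 to 104144511) encodes VE-cadherin, the cadherin of endothelial junctions. Its levels were 0.969, 1.99 and 2.17 CPM in the Bcl6 tumors and from 0.574 to 3.99 CPM, with a median of 1.97, in Smc3/Bcl6 tumors. All 9 tumors had some counts, 251 in total, and the highest levels were in Smc3/Bcl6 tumors 5 and 6. The log2 fold change was 0.31 (SE 0.68, adjusted p = 1, edgeR), and it was -0.033 without Bcl6 tumor 1. Kdr (ENSMUSG00000062960.7, chromosome 5, 75932827 to 75978458) encodes the main VEGF receptor of endothelium. Its levels were 1.58, 1.83 and 9.34 CPM in Bcl6 tumors and between 0.317 and 19.6 CPM, with a median of 4.32, in Smc3/Bcl6 tumors. The top values came from Smc3/Bcl6 tumor 1 and Bcl6 tumor 3, and the lowest was Smc3/Bcl6 tumor 2, in which long genes were low. The log2 fold change was 0.52 (SE 1.01, adjusted p = 1, edgeR). It was -0.33 without Smc3/Bcl6 tumor 1 and 1.82 without Bcl6 tumor 3.

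The blood endothelial genes did not keep a fixed proportion to each other. Per exon length, Pecam1 was 3.40 times Cdh5 in Smc3/Bcl6 tumor 5 and 146 times in Smc3/Bcl6 tumor 3, and Kdr ranged from 0.199 to 4.25 times Cdh5. Pecam1 and Cdh5 had a Pearson r of 0.08 (p = 0.834, exact permutation, n = 9; Spearman rho = 0.07, p = 0.880), which became -0.30 without Smc3/Bcl6 tumor 2. Pecam1 with Kdr gave r = 0.58 (p = 0.109, exact permutation; rho = 0.55, p = 0.133) and 0.12 without the 2 tumors farthest from the median of Pecam1 (0.23 without Smc3/Bcl6 tumor 2), and Cdh5 with Kdr gave r = 0.44 (p = 0.233, exact permutation; rho = 0.48, p = 0.194) and 0.30 without the 2 farthest from the median of Cdh5 (0.19 without Smc3/Bcl6 tumor 2). The genes most like Pecam1 across the tumors, looked up after its levels were seen, were Nedd9 (r = 0.97) and Bank1 (r = 0.97), an adaptor of B cell receptor signaling. Bank1 ranged from 113 to 1172 CPM and was lowest in Smc3/Bcl6 tumors 2 and 5 and highest in tumor 4, as Pecam1 was. The 6 B cell markers summed to between 2533 and 8031 CPM in Bcl6 tumors and between 4443 and 9961 CPM in Smc3/Bcl6 tumors, with their highest sum also in tumor 4, and 6 of 6 were tested with 0 past the thresholds. Their sum was lowest in Bcl6 tumor 3, which had 86.3 CPM of Pecam1. In Smc3/Bcl6 tumors 2 and 5, where Pecam1 was lowest, it was 4791 and 5368 CPM. The 7 platelet and megakaryocyte markers, of which 4 were tested and 0 passed, summed to between 1.06 and 35.7 CPM over all tumors. The part of these cells in the Pecam1 level was not tested. The 5 genes most like Cdh5 were Rassf8, Dhdh, 4931406C07Rik, Scel and Bmf, with r from 0.90 to 0.92 over 9 tumors. Those most like Kdr, looked up after its levels were seen, were Tvp23a (r = 0.98), Prkx, Kctd21, Fbxw4 and Mfn2 (r from 0.95 to 0.96). None of these is on the blood endothelium list. Without Smc3/Bcl6 tumor 2, r with Kdr was from 0.90 to 0.96 for these genes.

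Other genes of blood endothelium were low as well. Of 18 companion genes, 10 were tested, 5 had a fold change above 0 and 0 passed the thresholds. Plvap, a protein of endothelial fenestrae, was the most abundant for its length (2.22 CPM per kilobase) and reached 10.7 CPM in Smc3/Bcl6 tumor 4. Vwf, the von Willebrand factor of endothelium and platelets, had the largest fold change of this list (log2 1.41, SE 1.00, unadjusted p = 0.185, edgeR). It reached 13.8 CPM in Smc3/Bcl6 tumor 4 and was 0.208 CPM in tumor 1, and without tumor 1 it passed the thresholds (log2 fold change 1.67, unadjusted p = 0.0524). Tek, the angiopoietin receptor, had 8 counts in all tumors together, and Emcn, Erg and Cldn5 had 13, 31 and 45. The summed level of the 18 genes was between 7.31 and 26.8 CPM in Bcl6 tumors and between 9.84 and 40.3 CPM in Smc3/Bcl6 tumors. Among Smc3/Bcl6 tumors the lowest sum was in tumor 1, the tumor with the most Kdr. The 8 mural cell genes, which mark pericytes and smooth muscle, summed to between 4.58 and 13.4 CPM and between 4.57 and 20.3 CPM in these groups, with 6 tested and 0 past the thresholds. Of these, Tagln was the most abundant (1.28 CPM per kilobase) and Rgs5, a pericyte gene, had the largest fold change (log2 0.84, SE 1.74, unadjusted p = 0.639, edgeR).

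The lymphatic genes Lyve1 and Prox1 did not move together. Lyve1 (ENSMUSG00000030787.3, chromosome 7, 110850607 to 110863239) encodes a hyaluronan receptor of lymphatic endothelium that some macrophages also carry. Its levels were 0.264, 2.37 and 1.32 CPM in Bcl6 tumors and from 0 to 3.79 CPM, with a median of 0.447, in Smc3/Bcl6 tumors. Smc3/Bcl6 tumor 4 was highest, Bcl6 tumor 2 followed, and Smc3/Bcl6 tumor 1 had 0 counts. The log2 fold change was -0.19 (SE 1.21, adjusted p = 1, edgeR) and turned to 0.48 without Bcl6 tumor 2, to 0.07 without Smc3/Bcl6 tumor 1 and to 0.02 without Smc3/Bcl6 tumor 6. Of the alternatives run, limma with a quality weight per tumor was the only one to put it past the thresholds (log2 fold change -2.11, unadjusted p = 0.0582, adjusted p = 0.563).

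Prox1 (ENSMUSG00000010175.8, chromosome 1, 190118035 to 190170714) had 1.06, 0.377 and 0.377 CPM in Bcl6 tumors and between 0 and 11.7 CPM, with a median of 0.581, in Smc3/Bcl6 tumors. Smc3/Bcl6 tumor 6 had 176 of the 254 counts, tumor 4 followed with 36, and tumor 5 had 0. Its log2 fold change of 2.08 was the largest of the members (SE 1.64, unadjusted p = 0.229, adjusted p = 1, edgeR) and dropped to 0.30 without Smc3/Bcl6 tumor 6. Lyve1 and Prox1 gave r = -0.24 (p = 0.548, exact permutation, n = 9; rho = -0.25, p = 0.521), and r = -0.57 without the 2 tumors farthest from the median of Lyve1. The levels of Prox1 instead ran with Siglech (r = 0.98), a receptor of plasmacytoid dendritic cells, and Myl9 (r = 0.96), a myosin light chain, followed by Mknk1, Ighv9-4 and BC017643 (r from 0.93 to 0.94). Siglech had 69.9 CPM in Smc3/Bcl6 tumor 6 and 38.3 CPM in tumor 4, and at most 19.6 CPM in the other 7. Of all genes tested, those most like Lyve1 were Abhd1, Flt4, Ephx2, Ltbp4 and Gm11131 (r from 0.89 to 0.92), looked up after its levels were seen. Flt4 (r = 0.90), the VEGF receptor of lymphatic endothelium, was highest in the same Smc3/Bcl6 tumor 4 (2.39 CPM) and Bcl6 tumor 2 (1.56 CPM).

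Of 9 lymphatic companion genes, 5 were tested, 2 had a fold change above 0 and 0 passed the thresholds. Stab2, a scavenger receptor of sinusoidal and lymphatic endothelium, was both the most abundant for its length (0.996 CPM per kilobase) and the one with the largest fold change (log2 1.94, SE 1.37, unadjusted p = 0.187, edgeR), and DESeq2 placed it past the thresholds (log2 1.97, unadjusted p = 0.0891). It had 43.9 CPM in Smc3/Bcl6 tumor 4 and 18.6 CPM in tumor 6, the tumors that also led Prox1, and between 0.416 and 4.58 CPM in the other 7. In a fit that blocked on replicates 1 to 3, Stab1, a related receptor, was lower in Smc3/Bcl6 tumors (log2 fold change -1.59, unadjusted p = 0.0761, adjusted p = 0.983, edgeR). Smc3/Bcl6 tumors 4 and 6 also held the highest levels of Mrc1 (242 and 152 CPM, at most 17.6 in the others) and Cd163 (67.3 and 66.7 CPM, at most 1.67 in the others), scavenger receptors of macrophages, and of 4 of 6 platelet markers with enough counts. These tumors were the 2 highest for 2 of the 8 macrophage markers. C1qa, another of the 8, was highest in Smc3/Bcl6 tumors 2 and 3 (409 and 393 CPM), against 194 and 113 CPM in tumors 4 and 6. Without Smc3/Bcl6 tumor 2, in which long genes were low, it was highest in Smc3/Bcl6 tumor 3, followed by Bcl6 tumor 3 (303 CPM). Macrophage markers as a whole summed to between 325 and 2414 CPM in Bcl6 tumors and between 152 and 2991 CPM in Smc3/Bcl6 tumors, with 8 of 8 tested and 0 past the thresholds. The sum was 2443 CPM in Smc3/Bcl6 tumor 4 and 1449 CPM in tumor 6, and it was highest in tumor 2. Without tumor 2 it was highest in Smc3/Bcl6 tumor 3 (2554 CPM). Whether these cells took part in the Prox1 and Stab2 levels was not tested.

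Cxcl13 varied most among the members tested. Cxcl13 (ENSMUSG00000023078.5, chromosome 5, 95956951 to 95961068) had 1.06, 52.3 and 12.5 CPM in Bcl6 tumors and between 1.11 and 171 CPM, with a median of 8.40, in Smc3/Bcl6 tumors. The highest levels were in Smc3/Bcl6 tumors 5 and 3 (171 and 81.7 CPM) and Bcl6 tumor 2, while Bcl6 tumor 1 and Smc3/Bcl6 tumors 1 and 6 lay between 1.06 and 1.13 CPM, a span of 162-fold. Its SD of log2 CPM over the tumors was 2.72, at percentile 99.2 of the genes tested, against a median of 0.63 for all of them and 1.56 for the 7 members tested. Means were 22.0 ± 26.9 CPM (SD, n = 3) without and 45.3 ± 69.0 CPM (SD, n = 6) with the Smc3 deletion, with a log2 fold change of 1.04 (SE 1.62, adjusted p = 1, edgeR) that was -0.13 without Smc3/Bcl6 tumor 5 and 2.68 without Bcl6 tumor 2. Both genotypes held high and low tumors, and the exact two-sided permutation test gave p = 0.881.

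Ccl19 (ENSMUSG00000071005.5, chromosome 4, 42754525 to 42756577) failed the filter with 44 counts. It had 0, 0.916 and 0.0944 CPM in Bcl6 tumors and between 0 and 0.782 CPM, with a median of 0.175, in Smc3/Bcl6 tumors (p = 0.929, exact two-sided permutation). The tumors with the most counts, Bcl6 tumor 2 with 17, Smc3/Bcl6 tumor 3 with 15 and Smc3/Bcl6 tumor 5 with 6, were again the 3 highest. Its near copy Ccl19-ps1 had 27 counts, of which 9, 8 and 7 came from those tumors, so the division of reads between them is uncertain. Pdpn (ENSMUSG00000028583.9, chromosome 4, 143267431 to 143299564) had 2 counts in Bcl6 tumor 2, 2 in Smc3/Bcl6 tumor 5 and 0 in the other 7 (p = 1, exact two-sided permutation), which is too few to compare. Ccl19 and Cxcl13 gave the highest correlation of the 8 pairs computed (r = 0.77, p = 0.0179, Benjamini-Hochberg adjusted p = 0.143; rho = 0.69, p = 0.0475, adjusted p = 0.310; exact permutation, n = 9), and r = 0.67 (p = 0.101) without the 2 tumors farthest from the median of Ccl19. No pair passed an adjusted p of 0.05. Pdpn and Ccl19 had r = 0.61 (p = 0.0833, exact permutation; rho = 0.60, p = 0.0833), which rests on the 2 tumors with Pdpn counts.

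The genes most like Cxcl13 across the 9 tumors were Colq, a collagen-tailed anchor (r = 0.97), Phyhd1 (r = 0.97), the matrix protein Tnc (r = 0.95), Synj2 (r = 0.95) and the matrix protease Mmp2 (r = 0.95). Mmp2 had 63.2 CPM in Smc3/Bcl6 tumor 5, 47.1 CPM in tumor 3 and 17.1 CPM in Bcl6 tumor 2, and 0.399 CPM in Smc3/Bcl6 tumor 6. Those most like Ccl19 were Aes, B4galnt4, Yap1, Maob and Csmd1, with r from 0.90 to 0.95. Of 9 companion genes of follicular dendritic cells, 7 were tested, 3 had a fold change above 0 and 0 passed the thresholds. Fcgr2b, an Fc receptor that B cells share, was the most abundant for its length (81.3 CPM per kilobase, 254 to 836 CPM). Cr2, the complement receptor CD21 of B cells and follicular dendritic cells, had the largest fold change (log2 1.41, SE 1.82, unadjusted p = 0.455, edgeR) and ranged from 0.423 CPM in Smc3/Bcl6 tumor 2 to 1025 CPM in tumor 4. Another row of the table, also named Cr2, held 2477 counts, so that its reads are split and its level is uncertain. Smc3/Bcl6 tumor 5, which had the most Cxcl13, had 1.81 CPM of Cr2. Clu and Mfge8, which follicular dendritic cells are known to express, were instead highest in the tumors rich in Cxcl13, with 106 and 76.3 CPM in Smc3/Bcl6 tumor 5. They were 2 of the 9 listed genes, and the others were not led by these tumors. Fcer2a, also on the list, had its lowest level in Smc3/Bcl6 tumor 5 (5.60 CPM), and Fcgr2b had its lowest in Smc3/Bcl6 tumor 3 (254 CPM).

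Of 12 reticular fibroblast companions, 10 were tested, 5 had a fold change above 0 and 0 passed the thresholds. Vcam1, an adhesion molecule of stroma and macrophages, was the most abundant for its length (48.3 CPM per kilobase). Its levels ran from 127 to 336 CPM in Bcl6 tumors and from 28.4 CPM in Smc3/Bcl6 tumor 1 to 1533 CPM in tumor 4 (log2 fold change 1.30, SE 1.02, unadjusted p = 0.232, edgeR), and it passed the thresholds without Smc3/Bcl6 tumor 1 (log2 1.55, unadjusted p = 0.0887). Col3a1, a fibre collagen of reticular cells, had the largest fold change (log2 1.58, SE 1.44, unadjusted p = 0.294, edgeR) and reached 6.07 CPM in Smc3/Bcl6 tumor 5. Il7, the survival cytokine that reticular cells supply to lymphocytes, had a log2 fold change of -1.26 (unadjusted p = 0.152, edgeR) and passed the thresholds without Bcl6 tumor 1 (log2 -1.78, unadjusted p = 0.0604) or without Smc3/Bcl6 tumor 3 (log2 -1.83, unadjusted p = 0.0513). Without Bcl6 tumor 2, Pdgfra, a receptor of fibroblasts, passed them in the other direction (log2 4.17, unadjusted p = 0.0322).

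Of the addressins of venules, Glycam1 had its 3 highest levels in the same tumors as Cxcl13 and Ccl19, while Madcam1 was highest in another. Madcam1 (ENSMUSG00000020310.8, chromosome 10, 79664559 to 79668537) had 1.14, 6.09 and 0.944 CPM in Bcl6 tumors and between 0.0664 and 10.6 CPM, with a median of 2.32, in Smc3/Bcl6 tumors. It was highest in Smc3/Bcl6 tumor 2, followed by Bcl6 tumor 2 and Smc3/Bcl6 tumors 3 and 5. With an offset for exon length, log2 CPM of Smc3/Bcl6 tumor 2 moved from 3.42 to 2.49 and Bcl6 tumor 2, at 2.604, became the highest. The log2 fold change was 0.33 (SE 1.19, adjusted p = 1, edgeR) and -0.39 without Smc3/Bcl6 tumor 2, -0.08 without Bcl6 tumor 1, -0.07 without Bcl6 tumor 3 and 1.69 without Bcl6 tumor 2. On the mean of log2 CPM the difference was -0.17 (p = 0.893, exact two-sided permutation).

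Glycam1 (ENSMUSG00000022491.4, chromosome 15, 103562759 to 103565081) failed the filter with 73 counts. It had 2.16 CPM in Bcl6 tumor 2, 1.66 CPM in Smc3/Bcl6 tumor 5, 0.574 CPM in Smc3/Bcl6 tumor 3 and 0.0944 CPM in Bcl6 tumor 3, and 0 counts in the other 5 tumors (p = 0.643, exact two-sided permutation). Madcam1 and Glycam1 gave r = 0.56 (p = 0.124, exact permutation, n = 9; rho = 0.51, p = 0.167). Without Smc3/Bcl6 tumor 2, which had high Madcam1 and no Glycam1 count, r was 0.85 (p = 0.00595, exact permutation), and without the 2 tumors farthest from the median of Madcam1 it was 0.93 (p = 0.0119, exact permutation). Cxcl13 and Madcam1 gave r = 0.49 (p = 0.180, exact permutation; rho = 0.40, p = 0.291) and 0.46 without the 2 tumors farthest from the median of Cxcl13. Of 8 companion genes of high endothelial venules, 6 were tested, 3 had a fold change above 0 and 0 passed the thresholds. Gcnt1, a glycosyltransferase of mucin sugars, was the most abundant for its length (7.66 CPM per kilobase) and Podxl, a sialomucin, had the largest fold change (log2 2.10, SE 1.38, unadjusted p = 0.150, edgeR). Podxl reached 3.26 CPM in Smc3/Bcl6 tumor 4 and passed the thresholds without Smc3/Bcl6 tumor 2 (log2 2.35, unadjusted p = 0.0772). Chst4, a sulfotransferase of venules, had 2 counts in all.

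**Figure D3:**
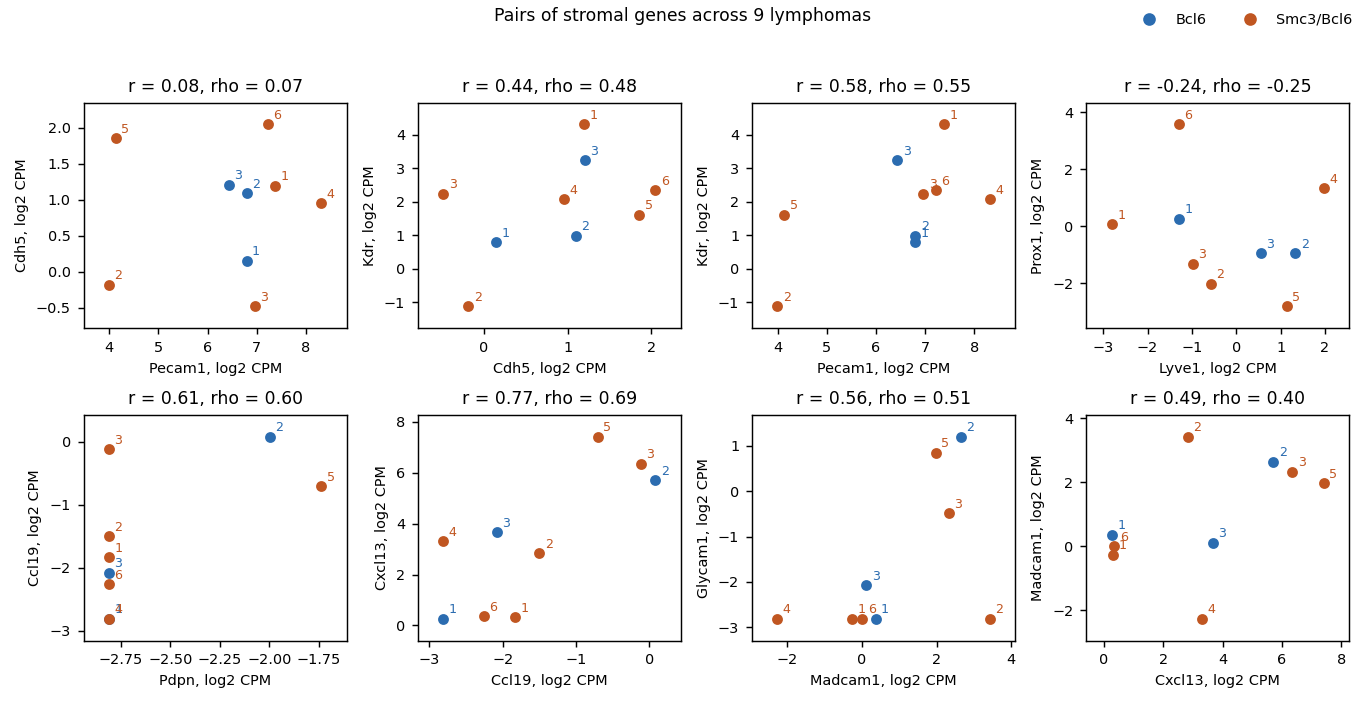
The 8 pairs of stromal genes, in log2 CPM with a prior count of 2, with each point a tumor labelled by its replicate number (blue Bcl6, orange Smc3/Bcl6) and Pearson r and Spearman rho above each panel. Bcl6 tumor 2 and Smc3/Bcl6 tumors 3 and 5 sit together at the top right for Ccl19 with Cxcl13 (r = 0.77), and Lyve1 with Prox1 shows no rise (r = -0.24).

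Bcl6 tumor 2 and Smc3/Bcl6 tumors 3 and 5 were thus the 3 highest for Cxcl13, Ccl19 and Glycam1. The same tumors were the 3 highest for 8 of the 63 companion genes tested (12.7%), against 167 of all 14057 genes tested (1.19%), and for 13 of the 80 companion genes with at least 10 counts, some of which rest on few counts (36 in all for Tie1 and 20 for Robo4). These tumors were picked after the members' values were seen, so the shares are a description. The 13 genes were Tie1, Robo4 and Clec14a of blood endothelium, Chst2 of venules, Grem1, Tnfsf11 and Col1a1 of reticular fibroblasts, Mfge8 and Clu of follicular dendritic cells, Rgs5, Myh11 and Des of mural cells, and the lymphatic growth factor Vegfc. Rgs5 had 2.70, 7.51 and 5.28 CPM in these 3 tumors and at most 0.755 CPM in the others. Grem1, which marks a subset of reticular cells, had 0.809, 0.417 and 1.58 CPM there and at most 0.283 CPM elsewhere. Without Smc3/Bcl6 tumor 2 the count was 9 of 63 companion genes tested (14.3%), against 2.14% of all genes tested, and Madcam1 joined the members led by these tumors.

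**Figure D4:**
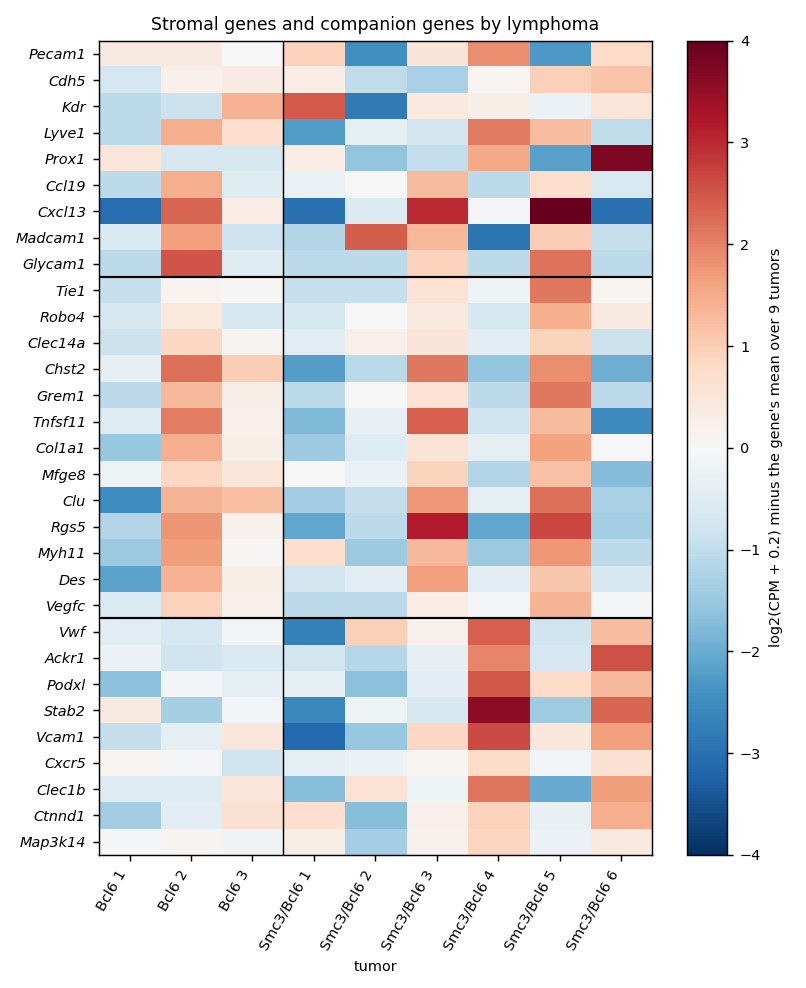
Heat map of 9 stromal members (top block, Pdpn left out for its 4 counts), the 13 companion genes highest in Bcl6 tumor 2 and Smc3/Bcl6 tumors 3 and 5 (middle block) and the 9 highest in Smc3/Bcl6 tumors 4 and 6 (bottom block), with 1 column per tumor. Color is log2(CPM + 0.2) minus the mean of the gene over 9 tumors; red blocks appear by construction in the tumors used to choose the lower rows, and Cxcl13 and Glycam1 are red in the tumors in which the middle block is red.

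Other cells varied over the same tumors. The 6 T cell markers summed to 1640 CPM in Bcl6 tumor 2, 1542 CPM in Smc3/Bcl6 tumor 3 and 553 CPM in Smc3/Bcl6 tumor 5, but also to 1328 CPM in Bcl6 tumor 3 and 1712 CPM in Smc3/Bcl6 tumor 2, against at most 96.9 CPM in the other 4. All 6 had a fold change below 0, and 0 passed the thresholds. The 3 tumors highest in Cxcl13 and Ccl19 were the 3 highest for 1 of 6 T cell markers, Cd4, and for 0 of 6 B cell, 0 of 8 macrophage and 0 of 6 platelet markers. Bcl6 tumor 1 and Smc3/Bcl6 tumors 1, 4 and 6, in which T cell markers were lowest, were also the 4 tumors with at most 1.14 CPM of Madcam1 and 0 counts of Glycam1, although Bcl6 tumor 3 had 0.944 CPM of Madcam1 with high T cell markers. The part of T cells in these levels was not tested. Of 5 plasma cell markers, 5 were tested and 0 passed, with sums from 686 to 3746 CPM. Adipocyte markers, which would mark fat around the node, summed to at most 13.6 CPM, with Lep at 0 in all tumors and Adipoq at 8 counts in total. Among 8 mesothelial and epithelial markers, 1 passed the thresholds, Epcam (log2 fold change 0.77, unadjusted p = 0.0635, adjusted p = 1, edgeR), which missed them in the blocked fit (log2 0.56, unadjusted p = 0.259), with library totals (unadjusted p = 0.114) and without Bcl6 tumor 2, Bcl6 tumor 3 or Smc3/Bcl6 tumor 1 (unadjusted p = 0.145, 0.174 and 0.125), while the mesothelial gene Msln had 27 counts in total.

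**Figure D5:**
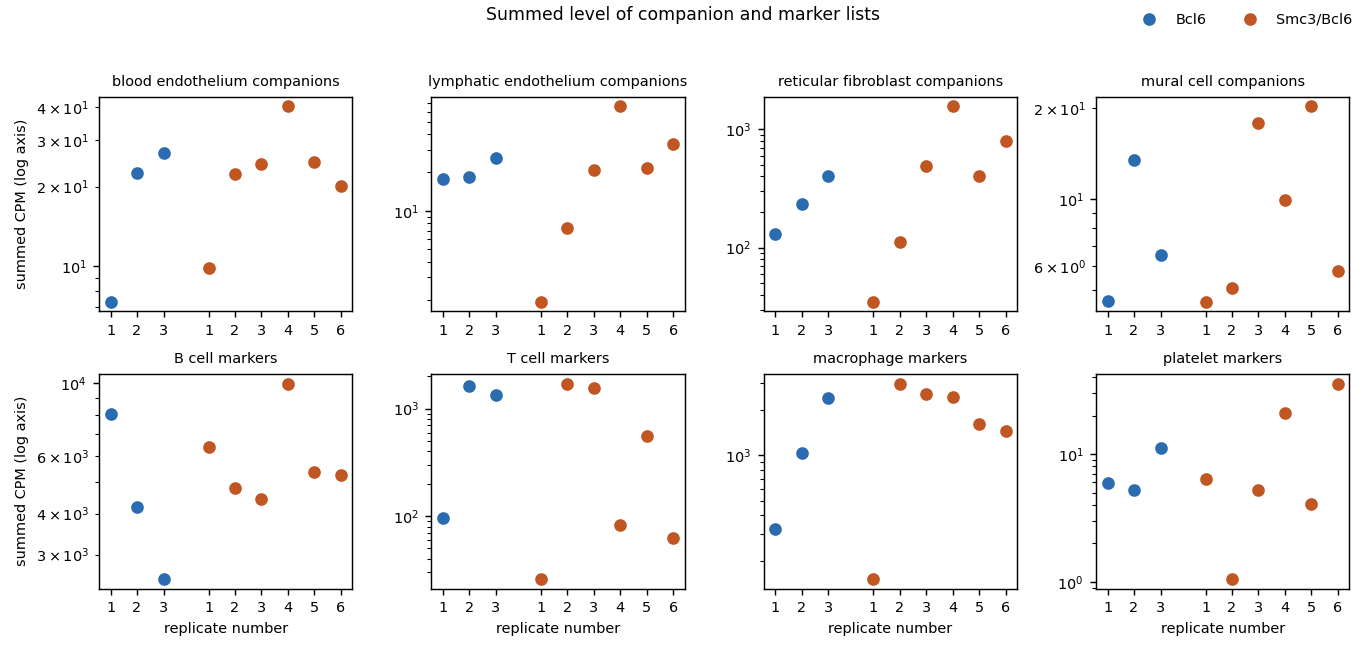
Summed CPM of 4 companion lists (top) and 4 marker lists of other cells (bottom) in each tumor on log axes that differ between panels, with Bcl6 tumors in blue, Smc3/Bcl6 tumors in orange and replicate numbers on the x axis. Each list overlaps between the genotypes, and T cell markers range from 26.1 to 1712 CPM.

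Smc3/Bcl6 tumors 4 and 6, the leaders in Prox1, were the 2 highest for 8 of the 63 companion genes tested (12.7%) against 7.70% of all genes tested. With Ackr1, which was not tested, they were Vwf, Ackr1, Podxl, Stab2, Vcam1, Cxcr5, Clec1b, Ctnnd1 and Map3k14. Ackr1, the chemokine receptor of venules, had 1.53 CPM in tumor 4 and 2.40 CPM in tumor 6 and at most 0.176 CPM in the other 7. These tumors had 0.0664 and 0.865 CPM of Madcam1 and 0 counts of Glycam1, so that Ackr1 and the addressins were high in different tumors.

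The partners of the stromal ligands and receptors were mostly abundant. Of 11 partners, 9 were tested, 4 had a fold change above 0 and 0 passed the thresholds. Ccr7, the receptor of Ccl19, had between 89.5 and 202 CPM over the tumors (log2 fold change 0.36, unadjusted p = 0.205, edgeR), and Cxcr5, the receptor of Cxcl13, had between 109 and 316 CPM (log2 0.39, unadjusted p = 0.269). These receptors spanned a narrow range while the levels of their ligands spanned from 0 to 0.916 CPM and from 1.06 to 171 CPM. The chains of the integrin that binds Madcam1 were Itgb7, the most abundant partner for its length (86.7 CPM per kilobase, 53.8 to 413 CPM), and Itga4 (25.8 to 362 CPM). Their log2 fold changes were -0.43 and -0.00 (unadjusted p = 0.465 and 0.997, edgeR). Clec1b, the platelet receptor of podoplanin, had the largest fold change among partners (log2 0.95, SE 0.94, unadjusted p = 0.337) and reached 18.5 CPM in Smc3/Bcl6 tumor 4. Ctnnb1 and Ctnnd1, the catenins that bind VE-cadherin, had log2 fold changes of -0.15 and 0.78 (unadjusted p = 0.616 and 0.348, edgeR). Vegfa, the ligand of Kdr, ranged from 0 to 13.2 CPM (log2 -0.19, unadjusted p = 0.881). With the replicate number as a block, Itgb7 (log2 -0.90, unadjusted p = 0.0944, adjusted p = 0.983) and Vegfa (log2 -2.02, unadjusted p = 0.0873, adjusted p = 0.983) were lower in Smc3/Bcl6 tumors by edgeR. With Stab1 this made 3 companion genes lower, against 0 in the fit of all 9 tumors without a block. In the blocked fit, 254 of all 13360 genes tested were lower and 45 higher, against 122 lower and 180 higher in the fit of all 9 tumors. The blocked fit left out Smc3/Bcl6 tumors 4, 5 and 6, so the block and the absence of these tumors cannot be told apart.

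The lymphotoxin and TNF pathway that maintains these cells was present in every tumor. All 10 genes were tested, 6 had a fold change above 0 and 0 passed the thresholds. Ltb, the membrane anchor of lymphotoxin, was the most abundant for its length (267 CPM per kilobase) and measured 256 to 415 CPM in the Bcl6 and 303 to 512 CPM in the Smc3/Bcl6 tumors. Tnfrsf1b, a TNF receptor of leukocytes, had the largest fold change (log2 -0.57, SE 0.62, unadjusted p = 0.380, edgeR). Ltbr, the lymphotoxin receptor of stromal cells, ranged from 1.23 to 17.9 CPM (log2 0.02, unadjusted p = 0.978, edgeR). Its lowest levels were in Bcl6 tumor 1 and Smc3/Bcl6 tumor 1, in which Cxcl13 and the macrophage marker sum were also among the lowest. Ltbr was highest in Bcl6 tumor 3, where Cxcl13 was 12.5 CPM, and was 10.3 CPM in Smc3/Bcl6 tumor 5, which had the most Cxcl13. Over all 85 companion genes, 63 were tested, 32 had a fold change above 0, the median log2 fold change was 0.02 and 0 passed the thresholds, with a smallest unadjusted p of 0.150.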

How the data were processed

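Bulk RNA-seq of 9 lymphomas (3 Bcl6, 6 Smc3/Bcl6) was analyzed. The authors ran the nf-core pipeline, mapped reads to mm10 with STAR and deposited raw read counts per gene from featureCounts, without normalization; a strand setting was not given in the sources used here. Positions and exon lengths came from GENCODE M21 (GRCm38), in which 97.9% of identifiers were present. Counts were compared by genotype with edgeR 4.0.16 (R 4.3.3), using TMM, the filter of edgeR on low counts, its quasi-likelihood test and no covariate. Log2 CPM had a prior count of 2. Single values were tested by exact two-sided permutation over 84 divisions, and correlations by exact permutation of pairings. DESeq2 1.42.0 and limma 3.58.1 were alternatives, as were other normalizations and filters. The edgeR, DESeq2 and limma fits were tested on simulated counts, and the permutation test of group differences on made-up values with a known answer. Deviations of tumors with the same replicate number correlated at 0.44, 0.11 and 0.16 for replicates 1 to 3. Tumors with different numbers were not correlated for comparison, and nothing in the labels says that equal numbers mean a pair. The numbers, taken from the sample titles, were used as a block in an alternative fit only. Companion genes were 85 genes in 8 lists (blood endothelium, venules, lymphatics, reticular fibroblasts, follicular dendritic cells, mural cells, binding partners, lymphotoxin and TNF pathway), beside markers of other cells, and 139 of 140 listed genes matched a single row; for Cr2, with 2 rows, the row on chromosome 1 was used. The members and lists were chosen with earlier results of these data known. Named are the members, per list the most abundant gene per length, that with the largest fold change and any past the thresholds, partners above 1 CPM (1 of which is not reported here) and the 5 genes most like Cdh5, Prox1, Ccl19 and Cxcl13; other genes were named after their values were seen.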

Additional observations from a re-analysis of the deposited data

Results flagged for a closer look

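Of 25 measures examined in the 6 Smc3/Bcl6 tumors (levels of the members and sums of the lists), 3 had a tumor far from the other 5 by Dixon's ratio, the gap to the nearest tumor divided by the whole range, above its 95% critical value for 6 tumors; chance alone would give 1.25. Pdpn had a ratio of 1.0 for Smc3/Bcl6 tumor 5, since that tumor had 2 counts and the other 5 had 0. Any count confined to a single tumor would give this ratio, so it carries no information on the size of the gap. The summed companion genes of follicular dendritic cells had a ratio of 0.665 for Smc3/Bcl6 tumor 4, with 1662 CPM against 684 to 921 CPM in the other 5, of which Cr2 made 1025 CPM. The summed macrophage markers had a ratio of 0.757 for Smc3/Bcl6 tumor 1, the lowest, with 152 CPM against 1449 to 2991 CPM in the other 5. In the same tumor Lyve1 had 0 counts and Vcam1 28.4 CPM. Bcl6 tumor 1 likewise had the lowest macrophage sum of its genotype, 325 CPM. These tumors share both a replicate number and the mesenteric lymph node label, which no other tumor has, so these cannot be told apart. The cause of these differences was not tested.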

How the results depend on the processing

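The direction of the genotype difference turned under at least 1 alternative for 6 of the 7 members tested, all but Prox1, and no alternative gave a gene with an adjusted p below 0.05. By limma with quality weights, 1 member (Lyve1) and 9 companion genes were lower and 2 (Ctnnd1 and Prnp) higher in Smc3/Bcl6 tumors, among 1002 lower and 642 higher of all genes. DESeq2 gave 1 companion gene higher (Stab2), no filter on low counts 1 higher (Ackr1) and 1 lower (Foxc2), and the tissue label as a term 1 lower (Itgb7). Over all genes, these settings gave 342, 576 and 130 higher and 101, 812 and 192 lower, of 14057, 26445 and 14057 tested, respectively. The replicate block over replicates 1 to 3 gave 3 companion genes lower, with or without an exon length offset (Stab1, Itgb7 and Vegfa), tested 5 of the 10 members and changed no other call among members and companion genes. Over all genes it gave 254 lower and 45 higher. It also left out Smc3/Bcl6 tumors 4, 5 and 6, so the block and the absence of these tumors cannot be told apart. Leaving out a tumor gave 84 to 339 genes higher and 61 to 321 lower over all genes tested (13762 to 14637 per fit). Among the companion genes it gave 0 to 2 higher and 0 to 2 lower, and 3 of the 9 fits gave none. The genes were Pdgfra without Bcl6 tumor 2, Vcam1 and Vwf without Smc3/Bcl6 tumor 1 and Podxl without Smc3/Bcl6 tumor 2 (higher), and Il7 and Ccl21a without Bcl6 tumor 1, Foxc2 without Bcl6 tumor 3 and Il7 without Smc3/Bcl6 tumor 3 (lower). Over the fits without 1 tumor, log2 fold changes ranged from -0.12 to 0.60 for Pecam1, -0.033 to 0.51 for Cdh5, -0.33 to 1.82 for Kdr, -1.08 to 0.48 for Lyve1, 0.30 to 2.68 for Prox1, -0.13 to 2.68 for Cxcl13 and -0.39 to 1.69 for Madcam1. With the replicate block they were -0.47 for Pecam1, -0.79 for Cdh5, -0.16 for Kdr and -0.028 for Cxcl13, and with the replicate block and length offset -0.32 for Pecam1, -0.73 for Cdh5 and -0.23 for Cxcl13. By limma they were -0.036 for Pecam1, -1.70 for Cxcl13 and -1.38 for Madcam1, and with the tissue term -0.037 for Madcam1. Differences of means also turned for Pecam1 (28.96 in linear CPM, 0.13 on the log2 scale without Smc3/Bcl6 tumor 2), Cdh5 (-0.017 with library totals), Ccl19 (-0.058 in linear CPM) and Madcam1 (0.75 in linear CPM). The correlation of Pecam1 with Cdh5 was -0.0056 with the exon length offset and -0.30 without Smc3/Bcl6 tumor 2. The cause of these shifts was not tested, and with 4 to 73 counts the levels of Pdpn, Ccl19 and Glycam1 were limited by depth.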
